A study of Mus musculus with 6 samples.

Results

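Fc receptors link antibody to the myeloid cells that act on it, and the 8 genes described here are the mouse receptors for immunoglobulin G (Fcgr1, Fcgr2b, Fcgr3 and Fcgr4), their shared signaling chain (Fcer1g), the neonatal receptor (Fcgrt), and the kinase and the phosphatase that act just below them (Syk and Inpp5d). They were set by name and role, with earlier results of these data known, and are 8 of 29374 genes with any estimated read and of 16656 genes tested. Poly(A) RNA was sequenced from CD11b+Gr1+ splenocytes, myeloid cells that express integrin alpha M and the Gr1 antigen, purified from the spleens of tumor-bearing mice. There were 3 libraries from Mll-AF9 mice with intact Rpl22 (Rpl22+/+) and 3 from Mll-AF9 mice deficient in Rpl22 (Rpl22-/-). Mll-AF9, a knocked-in fusion oncogene that drives acute myeloid leukemia, was carried by both groups. Rpl22 is a ribosomal protein, part of the large subunit. The labels number the libraries but give neither age nor the animal each one came from, and the study's text names a single mouse for each genotype. P-values therefore measure the spread between libraries, which may be technical. If each genotype came from a single mouse, genotype cannot be told apart from the individual mouse and its leukemia.

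The activating receptors Fcgr1, Fcgr3 and Fcgr4 bind IgG through their alpha chains and signal through the gamma chain Fcer1g, whose cytoplasmic tail holds an immunoreceptor tyrosine-based activation motif (ITAM). Src-family kinases phosphorylate the ITAM tyrosines when receptors are crosslinked, and Syk then docks on them and carries the signal to adaptors, lipid enzymes and exchange factors. Fcgr2b is the inhibitory counterpart, whose own tail holds an inhibitory motif (ITIM) that recruits the lipid phosphatase SHIP-1, the product of Inpp5d. The neonatal receptor, encoded by Fcgrt, pairs with beta-2-microglobulin (B2m) and returns IgG from endosomes to the surface.

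The sequences that set activating and inhibitory signaling apart are short. They are shown as coding DNA of GENCODE vM21 transcripts on the GRCm38 build, with the tyrosine codons in capitals. The Fcer1g ITAM lies on the minus strand at chr1:171229889-171230072, a span that includes an intron, and was the 1 match to the ITAM codon pattern in the 258 coding bases of Fcer1g-201. The Fcgr2b ITIM lies on the minus strand at chr1:170961071-170961088 and was the 1 match to the ITIM codon pattern in the 879 coding bases of Fcgr2b-202.
Fcer1g ITAM: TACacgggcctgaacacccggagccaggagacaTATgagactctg
Fcgr2b ITIM: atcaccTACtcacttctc

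The libraries held between 35828500 (Rpl22-/- replicate 1) and 102866127 (Rpl22-/- replicate 3) estimated reads. Across genes, log2 CPM (counts scaled to a common library size) of Rpl22+/+ replicate 2 correlated with the other Rpl22+/+ libraries at r = 0.926 and 0.934, while those correlated with each other at 0.992 (genes are not independent replicates). The changes of the Fc receptor genes and partners, and the ratios between genes, are therefore also given without Rpl22+/+ replicate 2. Rpl22 was lower in each Rpl22-/- library, at 58.3 to 89.9 CPM against 148 to 235 CPM (log2 fold change -1.27 ± 0.25, SE, adjusted p = 0.0106, edgeR). Among 5 genes of the sort antigens, Itgam (CD11b), Itgb2 and Ly6g fell in Rpl22-/-, and Ly6c1 and Ly6c2 did not pass. Ly6g fell the most of these, by -3.49 on the log2 scale. Its range was 149 to 178 CPM across Rpl22+/+ libraries and 11.1 to 15.7 CPM across Rpl22-/- libraries. The change on the same scale was -1.44 for Itgb2 and -1.02 for Itgam (adjusted p = 0.00482 for Itgam, edgeR). Of 8 markers of mature neutrophils, 6 fell and 0 rose, and their summed level was 44569 to 57566 CPM in Rpl22+/+ and 24102 to 32677 CPM in Rpl22-/-. Most of that sum was S100a8 and S100a9, which did not pass (log2 fold changes -0.18 and -0.45). The others fell more: Retnlg (-4.09), Mmp8 (-3.79), Ly6g (-3.49), Cxcr2 (-2.64), Ltf (-2.52) and Camp (-1.61). Of 6 monocyte markers 3 fell (2389 to 3006 CPM in sum against 2330 to 3043), of 8 tissue macrophage markers 7 were tested, of which C1qa, C1qb, C1qc and Mertk rose and Adgre1, the most abundant, fell (103 to 138 against 58.3 to 98.8 in sum, with Adgre1 at 77.7 to 106 against 22.2 to 48.0), of 6 dendritic cell markers 2 fell (44.6 to 53.2 against 41.1 to 55.3), of 5 eosinophil markers 1 fell (18.9 to 22.5 against 8.43 to 9.72), of 4 erythroid markers 3 rose (52.1 to 80.1 against 333 to 664), and of 4 platelet and megakaryocyte markers 2 were tested and 0 passed (2.79 to 4.50 against 3.29 to 3.64). The monocyte markers that fell were Ccr2 (log2 fold change -1.42), Csf1r (-1.08) and Ms4a4c (-0.84). Most of the monocyte sum was Ly6c2 (0.51) and F13a1 (0.07), which did not pass, nor did Cx3cr1 (-0.09). The part of all these cell types in the results that follow was not tested. In bulk RNA, fewer cells of a type and less RNA per cell cannot be told apart.

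In Rpl22-/- cells all 3 activating receptors and their shared gamma chain were lower, the inhibitory receptor Fcgr2b was higher, and Syk was lower. A gene passed at a Benjamini-Hochberg adjusted p under 0.05 in the quasi-likelihood F test of edgeR, at any size of change. Of the 8 genes, 5 passed as lower, where 13.8% of all 16656 genes did, and 1 passed as higher, where 13.7% of all genes did. The median log2 fold change of the 8 genes was -0.95, against 0.07 over all genes tested. The groups did not overlap and were lower in Rpl22-/- for 6 of the 8 genes (22.2% of all genes), did not overlap and were higher for 1 (23.9% of all genes), and overlapped for Fcgrt. Over all genes, 2288 passed as higher and 2306 as lower. With no composition factor the numbers were 3543 and 2222, and the median over all genes shifted to 0.19 on the log2 scale.

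**Figure D1:**
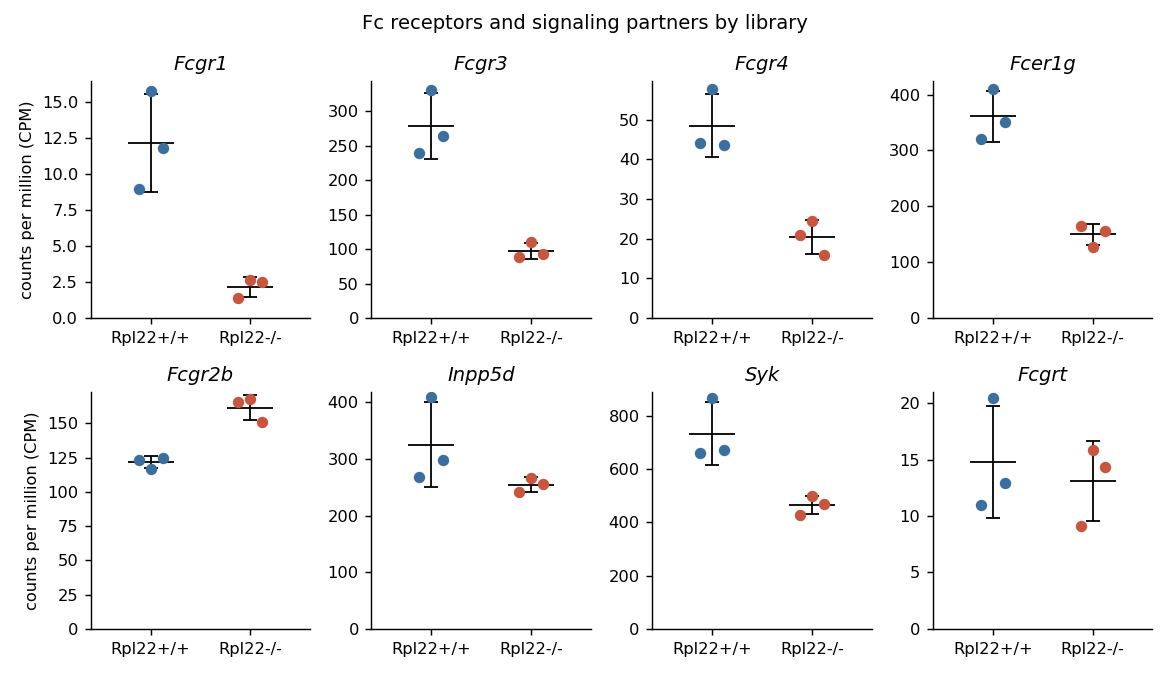
CPM (scaled counts, linear axes from 0) of the 8 genes in each library, with Rpl22+/+ in blue and Rpl22-/- in red; bars are mean ± SD (n = 3). Fcgr1, Fcgr3, Fcgr4 and Fcer1g lie lower in all 3 Rpl22-/- libraries, Fcgr2b lies higher, and the Fcgrt groups overlap.

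Fcgr1 (ENSMUSG00000015947, minus strand, chr3:96190225-96201285, GRCm39) encodes the high-affinity receptor, which binds monomeric IgG, and it had the largest change of the 8. It measured 8.94, 15.7 and 11.8 CPM in Rpl22+/+ replicates 1, 2 and 3, and 1.39, 2.64 and 2.54 CPM in Rpl22-/- replicates 1, 2 and 3. Each Rpl22-/- library lay below each Rpl22+/+ library, and the lowest value came from 52 reads. The mean fell from 12.1 ± 3.40 to 2.19 ± 0.693 CPM (SD, n = 3 each), which is -2.46 ± 0.33 as log2 fold change with its SE (adjusted p = 0.00247, edgeR).

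Fcgr3 (ENSMUSG00000059498, minus strand, chr1:170878743-170892504) encodes a low-affinity activating receptor for immune complexes and was the most abundant of the 4 IgG receptors in Rpl22+/+ cells. Its values were 240, 332 and 265 CPM in Rpl22+/+ and 89.0, 111 and 93.1 CPM in Rpl22-/-. The groups were far apart, with the lowest Rpl22+/+ library above all Rpl22-/- libraries. Fcgr3 fell from 279 ± 47.7 to 97.6 ± 11.5 CPM (log2 fold change -1.51 with SE 0.18, adjusted p = 0.00147 by edgeR).

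Fcgr4 (ENSMUSG00000059089, plus strand, chr1:170846489-170857330), the activating receptor with preference for IgG2a and IgG2b, measured 44.1, 57.6 and 43.7 CPM in Rpl22+/+ and 20.9, 24.6 and 15.97 CPM in Rpl22-/-. Again no library of one genotype reached the other. Fcgr4 fell from 48.5 ± 7.92 to 20.5 ± 4.31 CPM (log2 fold change -1.24 with SE 0.21, adjusted p = 0.0058 by edgeR).

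Fcer1g (ENSMUSG00000058715, minus strand, chr1:171057141-171061934) encodes the gamma chain with the ITAM printed above, which these receptors need for assembly at the surface and for signaling. It measured 321, 410 and 351 CPM in Rpl22+/+ and 165, 128 and 157 CPM in Rpl22-/-. The highest Rpl22-/- value was well below the lowest Rpl22+/+ value. Fcer1g fell from 361 ± 45.2 to 150 ± 19.4 CPM, to 41.5% of its Rpl22+/+ level (log2 fold change -1.27 ± 0.17, adjusted p = 0.00227, edgeR). These 4 genes passed under each of 18 other settings. With Rpl22+/+ replicate 2 omitted, the changes on the log2 scale were -2.26 for Fcgr1, -1.41 for Fcgr3, -1.14 for Fcgr4 and -1.22 for Fcer1g.

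Fcgr2b (ENSMUSG00000026656, minus strand, chr1:170786186-170804116), the inhibitory receptor, went in the other direction. It measured 123, 117 and 125 CPM in Rpl22+/+ and 166, 168 and 151 CPM in Rpl22-/-. Each Rpl22-/- library lay above each Rpl22+/+ library, and the rise was small, from 122 ± 4.34 to 161 ± 8.98 CPM (log2 fold change 0.41 with SE 0.12, adjusted p = 0.0444 by edgeR). The direction held under all 18 other settings, but the call held under 8 of them, and with the replicate number as a block the adjusted p was 0.0559. It passed without Rpl22+/+ replicate 2 (log2 fold change 0.33, adjusted p = 0.0489, edgeR), and it did not pass when any other library was left out (adjusted p 0.0953 to 0.146, edgeR).

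Fcgr2b is also a receptor of B cells, whose markers were present in these sorted cells. Of 7 B cell markers, 0 passed as higher and 1, Pax5, passed as lower, and none was at 0. The summed level of the list was 581 to 733 CPM in Rpl22+/+ and 367 to 561 CPM in Rpl22-/-, and the part of B cells in the Fcgr2b values was not tested. Fcgr2b and Fcgr3 are close relatives. Of the 59-base windows of the Fcgr3 transcripts, 59 bases being the read length, 8.02% were also found in Fcgr2b, and 2.43% of the Fcgr2b windows were found in Fcgr3, so reads from these stretches could be assigned to either gene. For Fcgr1, Fcgr4, Fcer1g, Fcgrt and Syk, 0% of windows were shared with another gene.

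The balance between the receptors was compared in TPM, a relative transcript abundance corrected for length, which allows genes to be set against each other. In Rpl22+/+ cells the order of mean levels was Fcer1g (875 ± 48.8 TPM, SD, n = 3), Fcgr3 (283 ± 12.03), Syk (178 ± 1.18), Fcgr2b (107 ± 18.6), Inpp5d (96.4 ± 6.88), Fcgr4 (53.2 ± 1.04), Fcgrt (11.5 ± 1.91) and Fcgr1 (6.60 ± 1.97). Neighbors in this order did not overlap between libraries, except Fcgr2b and Inpp5d. In Rpl22-/- cells the order was Fcer1g (388 ± 73.4 TPM), Fcgr2b (153 ± 13.6), Syk (124 ± 2.12), Fcgr3 (106 ± 5.26), Inpp5d (79.1 ± 5.82), Fcgr4 (24.1 ± 4.40), Fcgrt (10.9 ± 2.42) and Fcgr1 (1.14 ± 0.312). Here no neighbors overlapped, and Fcgr2b lay above Fcgr3. These sums count non-coding transcripts. On coding transcripts alone, Fcgr2b (107, 121 and 112 TPM in Rpl22-/- replicates 1, 2 and 3) overlapped with Syk (112, 115 and 117 TPM) and still lay above Fcgr3 (99.2, 111 and 98.9 TPM) in each library.

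Fcgr2b made up 26.4, 19.6 and 25.1% of the summed TPM of the 4 IgG receptors in Rpl22+/+ replicates 1, 2 and 3, and 56.2, 51.7 and 53.4% in Rpl22-/-. Fcgr3 made up 60.5, 66.0 and 62.4% in Rpl22+/+ and 34.7, 38.6 and 38.9% in Rpl22-/-. The inhibitory receptor thus held the largest share in each Rpl22-/- library and Fcgr3 the largest in each Rpl22+/+ library. The sum of the 4 receptors was 450 ± 16.3 TPM in Rpl22+/+ and 285 ± 18.1 TPM in Rpl22-/-.

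The ratio of activating receptors (Fcgr1, Fcgr3 and Fcgr4 together) to Fcgr2b was 2.78, 4.10 and 2.98 in Rpl22+/+ and 0.780, 0.936 and 0.874 in Rpl22-/-. Each Rpl22-/- library lay below each Rpl22+/+ library. These TPM include the non-coding transcripts of each gene, and on coding transcripts alone, a comparison chosen after seeing the data, the ratio was 3.6004, 4.38 and 3.73 in Rpl22+/+ and 1.18, 1.15 and 1.07 in Rpl22-/-. The Rpl22-/- libraries were thus below 1 with all transcripts counted and above 1 with coding transcripts alone, and the groups did not overlap either way. The ratio was 3.76-fold lower in Rpl22-/- (log2 difference -1.91), with a two-sided exact permutation p of 0.1, the smallest that 3 libraries against 3 allow. It was lower by a log2 difference of -1.74 without Rpl22+/+ replicate 2, and between -2.02 and -1.74 whichever library was left out. It was lower in all 3 pairs of same-numbered libraries (exact paired permutation p = 0.25, the smallest that 3 pairs allow), and the log2 difference on coding transcripts was -1.78. Each activating receptor was lower relative to Fcgr2b when taken alone. The Fcgr3 to Fcgr2b ratio was 2.29 to 3.37 in Rpl22+/+ and 0.618 to 0.748 in Rpl22-/-, and the Fcgr4 to Fcgr2b ratio was 0.442 to 0.632 and 0.135 to 0.179.

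**Figure D2:**
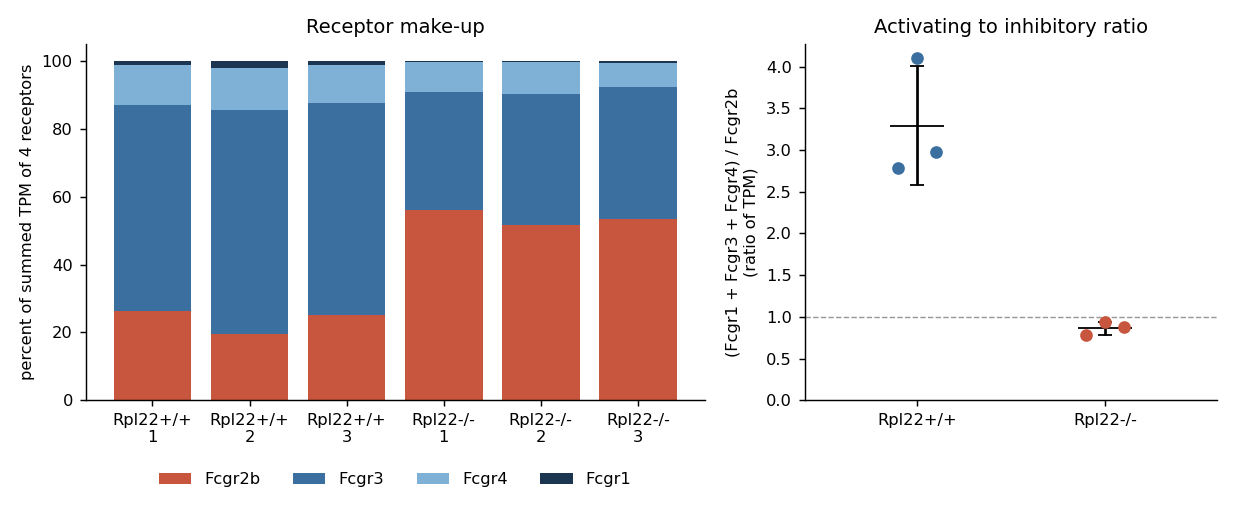
Left, share of each IgG receptor in the summed TPM of the 4 receptors, per library; right, ratio of the summed TPM of Fcgr1, Fcgr3 and Fcgr4 to that of Fcgr2b, with mean ± SD (n = 3) and a dashed line at 1, all with non-coding transcripts counted. Fcgr2b holds 19.6 to 26.4% in Rpl22+/+ and 51.7 to 56.2% in Rpl22-/-, and the ratio falls from 2.78 or more to 0.936 or less.

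The gamma chain was compared with the alpha chains it serves. The ratio of Fcer1g to the 3 activating alpha chains was 2.60, 2.40 and 2.66 in Rpl22+/+ and 3.42, 2.18 and 3.32 in Rpl22-/-. Rpl22-/- replicate 2 lay below all Rpl22+/+ libraries and the other two Rpl22-/- libraries above them, so the groups overlapped. The log2 difference was 0.19 (exact permutation p = 0.4, two-sided). No difference between genotypes in this ratio was detectable with 3 libraries each.

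Syk to Inpp5d, the kinase against the phosphatase, was 2.03, 1.76 and 1.77 in Rpl22+/+ and 1.496, 1.68 and 1.53 in Rpl22-/-. The groups did not overlap, although the difference was small (log2 difference -0.24, exact permutation p = 0.1, two-sided). Without Rpl22+/+ replicate 2 the log2 difference was -0.28.

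Syk (ENSMUSG00000021457, plus strand, chr13:52737209-52802828) measured 659, 867 and 671 CPM in Rpl22+/+ and 428, 497 and 470 CPM in Rpl22-/-. All Rpl22-/- libraries lay below the Rpl22+/+ libraries, of which replicate 2 was the highest. Syk fell from 732 ± 117 to 465 ± 34.4 CPM (log2 fold change -0.66 with SE 0.17, adjusted p = 0.027 by edgeR). It passed under 14 of 18 other settings, and without Rpl22+/+ replicate 2 (log2 fold change -0.56, adjusted p = 0.0144, edgeR). The call was lost without Rpl22+/+ replicate 1 (adjusted p = 0.0501), Rpl22+/+ replicate 3 (0.0693), Rpl22-/- replicate 1 (0.101) or Rpl22-/- replicate 3 (0.095).

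Inpp5d (ENSMUSG00000026288, plus strand, chr1:87548034-87648229), which encodes the phosphatase that turns off phosphoinositide signals below Fcgr2b, measured 269, 410 and 298 CPM in Rpl22+/+ and 241, 267 and 256 CPM in Rpl22-/-. The groups nearly touched, and Rpl22+/+ replicate 2 was far above the rest. The difference did not pass (log2 fold change -0.35 ± 0.19, adjusted p = 0.217, edgeR), nor did it under any of the 18 other settings. Without Rpl22+/+ replicate 2 the log2 fold change was -0.20.

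Fcgrt (ENSMUSG00000003420, minus strand, chr7:44742414-44753275) measured 10.98, 20.4 and 12.9 CPM in Rpl22+/+ and 9.09, 15.8 and 14.3 CPM in Rpl22-/-. The groups overlapped, and the difference did not pass (log2 fold change -0.17 ± 0.30, adjusted p = 0.728, edgeR). Its direction turned without Rpl22+/+ replicate 2 (log2 fold change 0.10) or without Rpl22-/- replicate 1 (0.03). Its partner B2m measured 1441, 1251 and 1441 CPM in Rpl22+/+ and 1632, 2090 and 1689 CPM in Rpl22-/-, with no overlap, and did not pass (log2 fold change 0.39 ± 0.17, adjusted p = 0.134, edgeR). The ratio of Fcgrt to B2m in TPM was 0.00354, 0.00732 and 0.00409 in Rpl22+/+ and 0.00252, 0.00342 and 0.00383 in Rpl22-/- (exact permutation p = 0.2, two-sided). The log2 difference was -0.56, and -0.25 without Rpl22+/+ replicate 2. This ratio was lower in all 3 same-numbered pairs (exact paired permutation p = 0.25). The light chain far exceeded the receptor in every library. Adjusted over the 4 ratios tested (Benjamini-Hochberg), the exact permutation p was 0.2 for activating to inhibitory receptors and for Syk to Inpp5d, 0.267 for Fcgrt to B2m and 0.4 for gamma to alpha chains.

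At the level of transcripts, 39 transcripts of the 8 genes had estimates and 32 were tested. Of these, 5 passed as lower (3.84% of 57835 transcripts tested did) and 0 passed as higher (3.1%). The 5 were Fcgr1-201, Fcgr3-201, Fcgr3-204, Fcgr4-201 and Fcer1g-201, so each activating receptor and the gamma chain was represented by a coding transcript. Of these 5, 4 passed without Rpl22+/+ replicate 1 or replicate 2 (Fcgr4-201 did not), 1 without Rpl22-/- replicate 2 (Fcgr3-201) and 0 without Rpl22+/+ replicate 3, Rpl22-/- replicate 1 or Rpl22-/- replicate 3. With Rpl22-/- replicate 3 omitted, they changed by -1.17 to -2.60 on the log2 scale, and the 1 transcript that passed as lower was Inpp5d-209. Fcer1g-201 carried 97.7 ± 0.592% of the gene's TPM in Rpl22+/+ and 96.8 ± 0.607% in Rpl22-/-. The share of Fcgr3-201 in Fcgr3 was likewise 78.0 ± 1.28% and 78.7 ± 1.89%. For Inpp5d, estimates jumped between similar long transcripts (Inpp5d-209 held 0 reads in Rpl22-/- replicates 1 and 2 and 1858 in replicate 3), and its transcripts are not described further.

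Fcgr2b is made in forms that differ by a cytoplasmic exon, and its transcripts were therefore divided by that exon, a division chosen after their values were seen and given with no test. The form with the exon is the one typical of B cells and stays at the surface, and the form without it, typical of myeloid cells, can enter coated pits and internalize complexes. The exon has 141 bases on the minus strand at chr1:170963325-170963465 (GRCm38). It is whole in Fcgr2b-201 and Fcgr2b-204 and absent from Fcgr2b-202, and Fcgr2b-203 keeps its first 57 bases, shown in capitals.
Fcgr2b cytoplasmic exon: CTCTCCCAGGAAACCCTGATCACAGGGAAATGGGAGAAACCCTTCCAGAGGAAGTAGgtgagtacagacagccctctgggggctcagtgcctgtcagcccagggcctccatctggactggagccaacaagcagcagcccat

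Transcripts with the whole exon summed to 21.6, 20.6 and 20.2 TPM in Rpl22+/+ and 36.5, 42.9 and 36.5 TPM in Rpl22-/-. The form without it summed to 62.4, 49.3 and 64.1 TPM in Rpl22+/+ and 61.6, 68.8 and 67.6 TPM in Rpl22-/-. The first groups did not overlap and the second did. The exon was whole in 24.2, 26.2 and 21.8% of the coding Fcgr2b TPM in Rpl22+/+ and in 34.1, 35.5 and 32.7% in Rpl22-/-. The form without it was the major one in each library, at 62.8 to 69.7% in Rpl22+/+ and 56.9 to 60.6% in Rpl22-/-. Of the single transcripts, Fcgr2b-204 had 932, 1485 and 930 reads in Rpl22+/+ and 932, 4322 and 3050 in Rpl22-/-, and it did not pass (log2 fold change 1.04 ± 0.34, adjusted p = 0.141, edgeR). With the replicate number as a block it was the 1 transcript that passed as higher (adjusted p = 0.0483). The other transcript with the whole exon, Fcgr2b-201, had 1674, 1526 and 1761 reads in Rpl22+/+ and 1142, 1832 and 2813 in Rpl22-/-, with overlapping TPM and a log2 fold change of 0.07 ± 0.18 (adjusted p = 0.889, edgeR). Non-coding transcripts took 23.9, 8.03 and 21.1% of the gene's TPM in Rpl22+/+ and 36.3, 19.6 and 21.0% in Rpl22-/-, with Rpl22+/+ replicate 2 the lowest.

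**Figure D3:**
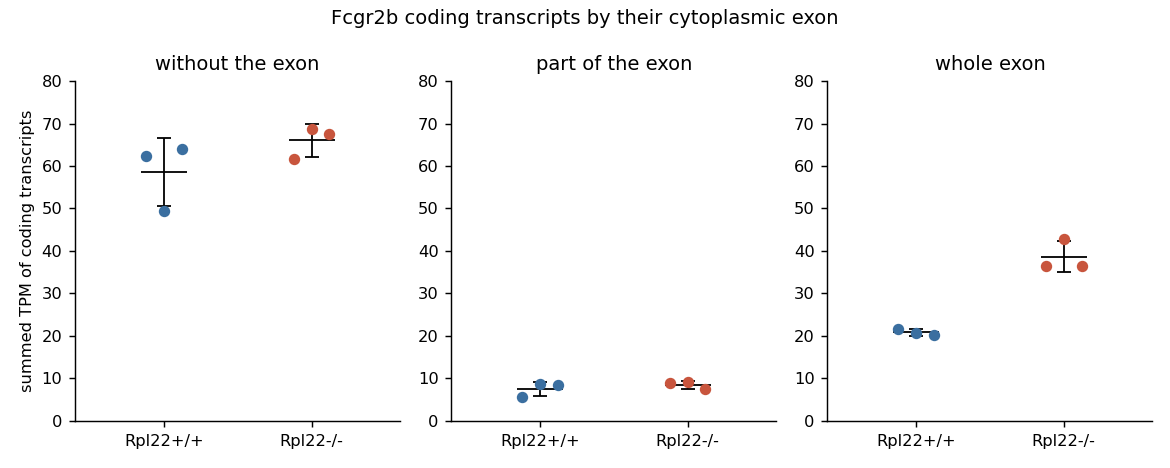
Summed TPM of coding Fcgr2b transcripts without the cytoplasmic exon, with part of it, and with the whole exon, per library (linear axes from 0; bars are mean ± SD, n = 3). The whole-exon form lies at 20.2 to 21.6 TPM in Rpl22+/+ and 36.5 to 42.9 TPM in Rpl22-/-, while the other forms overlap between genotypes.

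Fcgr2b, Fcgr4, Fcgr3 and Fcer1g lie within 276 kb of chromosome 1, and their neighbors were listed after their values were seen. Of 11 genes in this span, 9 were tested. The 5 that are not Fc receptor genes had log2 fold changes from -0.05 to 2.26. Of them 2 passed as higher and 0 as lower, where 13.7% and 13.8% of all genes tested did. Sdhc, a subunit of succinate dehydrogenase, and Cfap126 lay between Fcgr3 and Fcer1g with overlapping groups (log2 fold changes -0.05 ± 0.23 and 0.15 ± 0.32). Cfap126 was at a low level (0.50 CPM in Rpl22+/+ and 0.55 CPM in Rpl22-/-). Pcp4l1 rose (4.93 to 21.5 CPM, log2 fold change 2.12 ± 0.23 with adjusted p = 0.00114 by edgeR), as did the barely detected Apoa2, an apolipoprotein gene (0.0644 to 0.312 CPM). The fall of Fcgr4, Fcgr3 and Fcer1g was thus not shared by the genes tested between them.

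**Figure D4:**
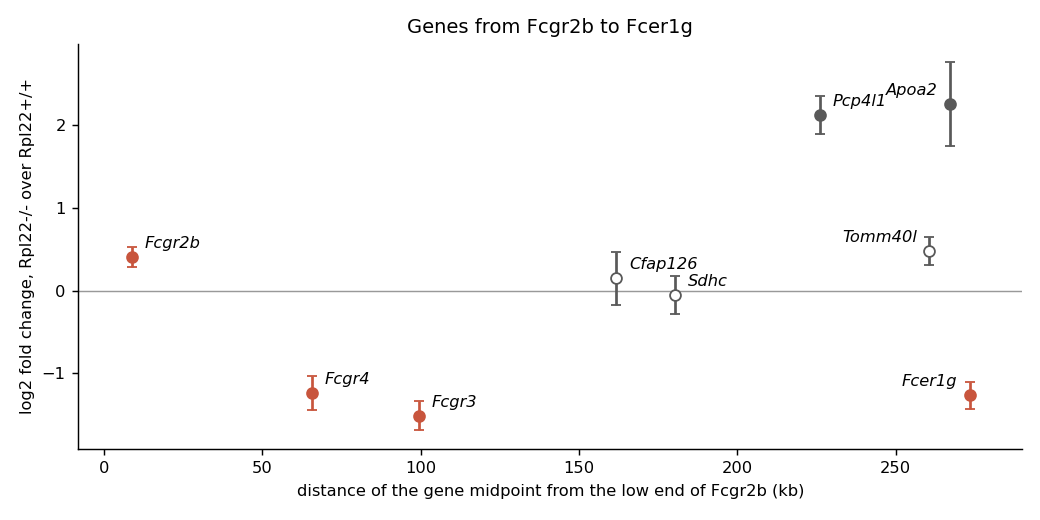
Log2 fold change (Rpl22-/- over Rpl22+/+, ± SE) of the 9 tested genes from Fcgr2b to Fcer1g against the distance of each gene's midpoint from the low end of Fcgr2b, in kb; Fc receptor genes are red, others gray, and filled points have an adjusted p under 0.05. Fcgr4, Fcgr3 and Fcer1g lie at -1.24 to -1.51, and the 5 other genes between -0.05 and 2.26.

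Promoters are shown for the 3 activating receptors, which fell together. RefSeq promoters (GRCm38.p6, 250 bases before to 50 after the start) were matched by symbol for all 8 genes, with 2 starts for Fcgr3 and for Syk. PU.1, an ETS-family factor of myeloid cells, recognizes a purine-rich core, searched here as GAGGAA on both strands. The core was present once in each of the promoters of Fcgr1, Fcgr3 and Fcgr4, on the opposite strand and starting 55, 15 and 22 bases before the start, and its letters are in capitals. The Fcgr1 promoter is chr3:96293920-96294219 (minus strand), the Fcgr3 promoter chr1:171059345-171059644 (minus strand) and the Fcgr4 promoter chr1:171018676-171018975 (plus strand).
Fcgr1 promoter: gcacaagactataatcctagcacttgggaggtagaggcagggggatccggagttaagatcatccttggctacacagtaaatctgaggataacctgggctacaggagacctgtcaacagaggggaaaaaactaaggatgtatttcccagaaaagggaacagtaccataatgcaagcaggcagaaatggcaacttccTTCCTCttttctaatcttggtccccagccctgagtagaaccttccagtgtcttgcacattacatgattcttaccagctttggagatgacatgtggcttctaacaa
Fcgr3 promoter: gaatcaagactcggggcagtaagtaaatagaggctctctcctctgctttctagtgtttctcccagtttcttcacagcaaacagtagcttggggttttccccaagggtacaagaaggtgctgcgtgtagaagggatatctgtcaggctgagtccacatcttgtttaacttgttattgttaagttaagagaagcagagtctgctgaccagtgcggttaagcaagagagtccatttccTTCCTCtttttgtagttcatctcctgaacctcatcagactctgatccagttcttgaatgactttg
Fcgr4 promoter: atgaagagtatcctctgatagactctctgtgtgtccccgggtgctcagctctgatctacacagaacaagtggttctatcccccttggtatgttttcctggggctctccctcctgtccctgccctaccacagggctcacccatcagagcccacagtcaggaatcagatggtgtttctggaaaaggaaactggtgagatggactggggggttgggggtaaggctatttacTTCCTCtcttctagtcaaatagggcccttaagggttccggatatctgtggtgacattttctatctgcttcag

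The same core had 0 matches in the promoters of Fcgr2b, Fcer1g and Fcgrt, 2 in that of Inpp5d and 1 in 1 of the Syk promoters, and 28.3% of 32851 RefSeq promoters hold it. A C/EBP-type sequence (TTNNGNAA, both strands, in 40.7% of promoters) was present in the promoters of Fcgr3, Fcgr4 and Fcgrt and in 1 of Syk. The interferon-type GAS element (TTCNNNGAA, in 8.3% of promoters) was present once in the Fcgr1 promoter and in none of the other 7 genes. These matches describe letters in a window and not binding.

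Outside the 8 genes, 7 lists of related genes (108 listed, 106 with an identifier, 99 tested) were compared. Among them 42 passed as lower (42.4%, against 13.8% of all genes tested) and 4 as higher (4.04%, against 13.7%), with a median log2 fold change of -0.58. The counts for single lists that follow can be read against the same shares of all genes. The number lower was 54 without Rpl22+/+ replicate 2, 23 without Rpl22+/+ replicate 3, and 21 without Rpl22-/- replicate 1 or 3, and the number higher was 7 without Rpl22+/+ replicate 2 and 8 with the replicate number as a block.

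**Figure D5:**
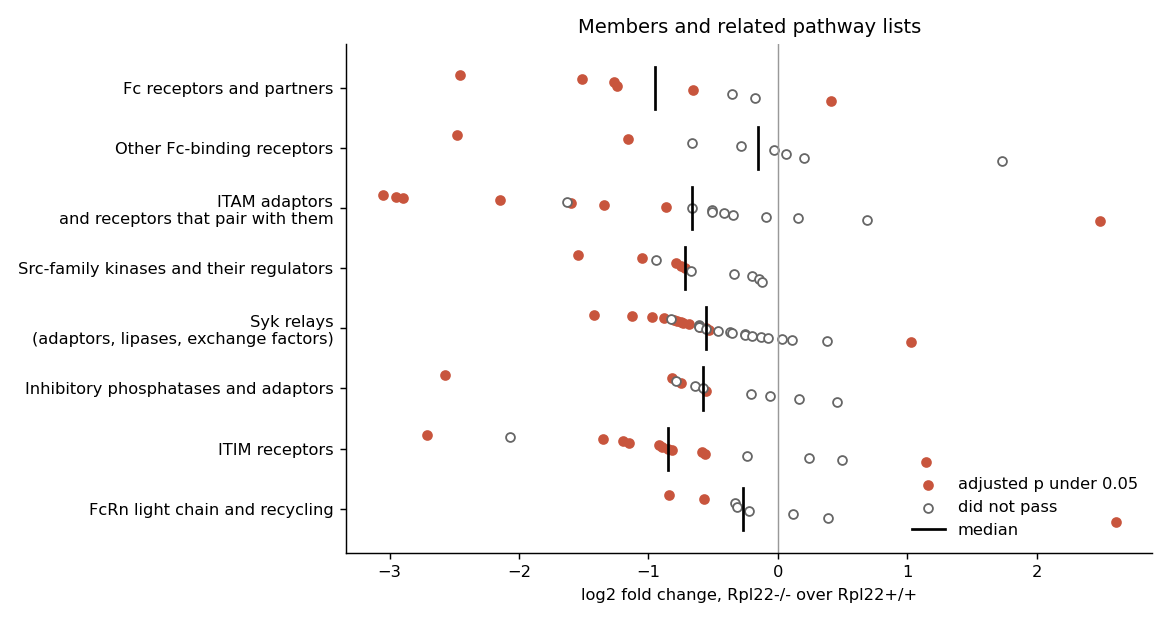
Log2 fold change (Rpl22-/- over Rpl22+/+) of the 8 Fc receptor genes and of the genes tested in 7 related lists, one point per gene; filled red points have an adjusted p under 0.05, open points did not pass, and black bars are medians. Medians lie below 0 in each row, from -0.95 for the 8 genes to -0.16 for other Fc-binding receptors.

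Of 8 other Fc-binding receptors tested, 2 passed as lower and 0 as higher (median log2 fold change -0.16). Fcer1a, the IgE-binding chain of mast cells and basophils, fell from 0.342 ± 0.197 to 0.0626 ± 0.0221 CPM (log2 fold change -2.48 with SE 0.59, adjusted p = 0.0216 by edgeR), a very low level, and passed under 12 of 17 other settings. Ms4a2, the beta chain of the same receptor, was higher in all Rpl22-/- libraries and did not pass (log2 fold change 1.73, adjusted p = 0.096, edgeR). Among 6 mast cell and basophil markers, Fcer1a and Ms4a2 included, 3 fell and 1 rose, with a summed level of 471 to 594 CPM in Rpl22+/+, most of it from Hdc (453 to 582 CPM), and 30.2 to 32.0 CPM in Rpl22-/-. Fcrl1, a B cell Fc receptor-like protein, fell from 7.41 ± 0.806 to 3.31 ± 0.912 CPM (log2 fold change -1.16 with SE 0.24, adjusted p = 0.0142 by edgeR).

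Of 17 ITAM adaptors and receptors that pair with them, 7 passed as lower and 1 as higher (median log2 fold change -0.66). The largest falls were in Cd300ld, which pairs with the gamma chain (41.4 ± 2.89 to 4.97 ± 0.278 CPM, log2 fold change -3.06 ± 0.14), the paired immunoglobulin-like receptor Pira2 (226 ± 31.6 to 29.1 ± 3.01 CPM, -2.96 ± 0.17) and the C-type lectin Clec4d (23.4 ± 1.31 to 3.14 ± 0.281 CPM, -2.89 ± 0.15). Pira2 belongs to a family of near-identical genes, so its reads are uncertain. The other ITAM adaptor, Tyrobp (DAP12), was lower in all Rpl22-/- libraries and did not pass (log2 fold change -0.51, adjusted p = 0.132, edgeR). Ncr1, an activating receptor of NK cells, rose from 0.319 ± 0.0362 to 1.80 ± 0.529 CPM (log2 fold change 2.49 with SE 0.33, adjusted p = 0.00233 by edgeR). It is also 1 of 6 NK cell markers, of which 4 rose, with a summed level of 27.5 to 45.3 CPM in Rpl22+/+ and 167 to 185 CPM in Rpl22-/-, most of it in Rpl22-/- from Nkg7 (14.8 to 25.5 CPM against 142 to 166 CPM). The part of such cells in this value was not tested.

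Of 11 Src-family kinases, which start the signal, and their regulators, 5 passed as lower and 0 as higher (median log2 fold change -0.72). They include the myeloid kinase Fgr (357 ± 54.3 to 207 ± 19.5 CPM, log2 fold change -0.79 ± 0.16), Lck (13.8 ± 3.13 to 6.67 ± 0.534 CPM, -1.05 ± 0.20) and the adaptor Pag1, which brings Csk, a kinase that restrains the Src family, to the membrane (254 ± 28.5 to 87.4 ± 19.0 CPM, -1.54 ± 0.19). Lck is a kinase of T cells, and all 7 T cell markers fell as well, from a summed 46.7 to 59.2 CPM to 14.9 to 18.4 CPM. Lyn, which phosphorylates both ITAMs and ITIMs, was lower in all Rpl22-/- libraries and did not pass (log2 fold change -0.34, adjusted p = 0.163, edgeR).

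Of 29 relays below Syk, 12 passed as lower and 1 as higher (median log2 fold change -0.56). Pik3cg, the catalytic subunit of PI3K gamma, fell from 206 ± 9.10 to 94.3 ± 5.06 CPM (log2 fold change -1.12 with SE 0.12, adjusted p = 0.00112 by edgeR). The exchange factor Vav3 fell from 69.5 ± 9.60 to 35.4 ± 0.654 CPM, and the adaptor Lat, also among the T cell markers, from 9.25 ± 1.53 to 3.44 ± 0.507 CPM. Card9, which links Syk-coupled lectins to NF-kB, rose from 177 ± 3.07 to 361 ± 38.1 CPM (log2 fold change 1.03 with SE 0.14, adjusted p = 0.00235 by edgeR). It was the 1 relay that rose, and passed under all 18 other settings.

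The inhibitory side did not rise as a group. Of 11 inhibitory phosphatases and adaptors, 4 passed as lower and 0 as higher (median log2 fold change -0.58), led by the adaptor Dok2 (46.7 ± 8.22 to 7.85 ± 0.625 CPM, log2 fold change -2.57 ± 0.18), with Inppl1, which encodes the related phosphatase SHIP-2 (74.1 ± 14.1 to 41.9 ± 4.26 CPM, -0.82 ± 0.17), and Ptpn11, which encodes SHP-2 (173 ± 27.1 to 103 ± 4.56 CPM, -0.75 ± 0.15). Of 15 ITIM receptors other than Fcgr2b, 10 passed as lower and 1 as higher (median log2 fold change -0.85). Siglece fell from 93.5 ± 12.6 to 14.3 ± 2.68 CPM (log2 fold change -2.71 ± 0.20), Sirpa, the receptor for CD47, from 512 ± 117 to 201 ± 10.8 CPM (-1.35 ± 0.19), and Ceacam1 from 463 ± 96.3 to 202 ± 60.4 CPM (-1.19 ± 0.26), the last passing under 12 of 18 other settings. Ptpn11, Inppl1 and Fcrl1 each passed under 16 of 18 and Fgr under 17 of 18. Clec12a, an ITIM lectin of myeloid cells, rose from 347 ± 43.2 to 768 ± 125 CPM (log2 fold change 1.14 with SE 0.18, adjusted p = 0.00478 by edgeR).

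Of 8 genes of FcRn recycling, 2 passed as lower and 1 as higher (median log2 fold change -0.27). These are 25% and 12.5% of the list, against 13.8% and 13.7% of all genes. Ehd1 (200 ± 53.4 to 112 ± 12.5 CPM, log2 fold change -0.84 ± 0.21) and Snx4 (76.1 ± 1.75 to 51.2 ± 3.68 CPM, -0.57 ± 0.12), both of endosomal recycling, fell, and passed under 15 and 14 of 18 other settings. The endosomal GTPase Rab4a rose from a low level (0.246 ± 0.0491 to 1.51 ± 0.152 CPM, log2 fold change 2.61 ± 0.30 with adjusted p = 0.00132 by edgeR).

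The genes with profiles most like each Fc receptor gene were named by the root mean square difference of centered log2 CPM over the 6 libraries, among 11849 other coding genes whose mean count was 50 or more. They were Mcub, Cd302 and Emilin2 for Fcgr1 (differences of 0.075 to 0.12 log2 units), Fam117b, Sqor and Hcls1 for Fcgr3 (0.042 to 0.051), Tmem237, Pygl and Bcl2a1a for Fcgr4 (0.045 to 0.090) and Slc6a6, Stard8 and Srl for Fcer1g (0.075 to 0.096). For Fcgr2b they were Clcc1, Gpbp1l1 and Gtf3c6 (0.025 to 0.030), for Syk Dck, Zfp740 and Fam32a (0.010 to 0.029), for Inpp5d Usf2, Kif1bp and Zfp710 (0.022 to 0.029) and for Fcgrt Ly6i, P3h1 and Itm2c (0.069 to 0.091). None of the 8 genes was among the 3 nearest to another of them.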

How the data were processed

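CD11b+Gr1+ splenocytes of 3 Rpl22+/+ and 3 Rpl22-/- Mll-AF9 libraries were grouped by their titles. Per the study's methods, poly(A) RNA was made into stranded libraries, and the authors used Trimmomatic on the paired reads, then Salmon for transcript abundance (versions and transcript set not given in the sources used here). The authors deposited estimated counts and TPM per transcript, with effective lengths. A further deposited table gives a base mean signal and GRCm39 positions per gene, used for positions and as a check of the gene sums (ratio 0.908 to 0.984 for the 8 genes). Its fold changes, standard errors, test statistics and p-values were not used.

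Estimated counts and TPM were summed to genes with GENCODE vM21 (136036 of 276623 transcripts, carrying 98.0 to 98.1% of reads) and counts were rounded. Because Salmon divides reads between similar transcripts, sums for related genes are estimates. Genotypes were compared with edgeR 4.0.16 (R 4.3.3, quasi-likelihood F test, TMM factors, filterByExpr, Benjamini-Hochberg over all tested genes), as were transcripts. The study's own tool, DESeq2 1.42.0, was an alternative, as was limma 3.58.1. The SE is that implied by F. CPM uses TMM-scaled library sizes. Ratios of TPM were compared by two-sided exact permutation tests (scipy 1.17.1). The edgeR, limma-voom and DESeq2 fits were also run on simulated counts. These held fewer changed genes than passed here and no replicate structure, so they do not check the calls above.

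The 8 genes, the 7 pathway lists and the 12 marker lists, written from general knowledge, were chosen with earlier results of these data known. Named list genes are up to 3 per direction with the largest change among those that passed; other list genes named (Tyrobp, Lyn, Ms4a2) were chosen after their values were seen. Promoter motifs were also chosen then. No marker list had a gene at 0 in all libraries. Alternatives were other scaling factors, filters, tests and a length offset, pseudogenes left out, a size limit of 1 on the log2 scale, the replicate number as a block, and each library left out. Ratios on coding transcripts and their paired tests were added after seeing the data.

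Replicate numbers are from the titles. Over 13202 genes, each library's deviation from its group mean correlated at 0.57, 0.715 and 0.129 for same-numbered libraries. Each was over the limit of 0.1 used for treating the numbers as pairs, that of replicate 3 only narrowly. The main tests stayed unpaired, and the paired fit and paired exact tests of the ratios were alternatives. Rpl22+/+ replicate 3 correlated more with Rpl22-/- replicate 1 (0.43), so the pairing of replicate 3 is uncertain.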

Additional observations from a re-analysis of the deposited data

How the results depend on the processing

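Under the alternatives, Fcgr1, Fcgr3, Fcgr4 and Fcer1g kept their direction and call, Inpp5d never passed, and Fcgrt ran from -0.356 to 0.096 with a library left out, turning higher on omission of Rpl22+/+ replicate 2 (0.096) or Rpl22-/- replicate 1 (0.031). The causes of the changes below were not tested. The 1 gene of the 8 higher in Rpl22-/-, Fcgr2b, became 0 with DESeq2 size factors (adjusted p = 0.0598), no filter on low counts (0.0846), the DESeq2 test (0.0536), the length offset (0.0592), the replicate block (0.0559) and a log2 fold change over 1; leaving out a library gave 0 to 1 higher and 4 to 5 lower. All genes higher numbered 3543 with no composition factor and 1488 with a log2 fold change over 1 (1423 lower), and 1175 to 3540 higher and 1392 to 3311 lower with a library left out. List genes higher numbered 7 with no composition factor, the DESeq2 test, and limma on log2(TPM + 1) or log2(TPM + 0.1), and 8 with the replicate block; 17 were lower with a log2 fold change over 1, and leaving out a library gave 4 to 7 higher and 21 to 54 lower. Transcripts numbered 1 higher with the replicate block, and 0 to 0 higher and 0 to 4 lower with a library left out. The replicate block changed no other call of the 8 genes. With a library left out, the log2 difference in ratio was -2.02 to -1.74 for activating to inhibitory receptors, 0.0755 to 0.402 for gamma to alpha chains, -0.291 to -0.175 for Syk to Inpp5d and -0.77 to -0.246 for Fcgrt to B2m, and no ratio changed direction with CPM, 1 TPM added or coding transcripts only. In the replicate block (paired exact tests), p was 0.25 for each ratio but gamma to alpha chains (0.5). Depth limits Fcgr1, with 52 reads in Rpl22-/- replicate 1.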
